A study of Mus musculus with 38 samples.

Results

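The soleus muscle of mice that fasted in the cool but were kept out of torpor (Dep) was compared with that of mice sampled a day earlier with food (Pre). The animals were young adult male C57BL/6J mice, wild type, with a temperature sensor implanted in the abdomen beforehand, and each library came from 1 or both soleus muscles of a different animal. The 4 Pre mice had free access to food and were sampled on day 1. The 4 Dep mice were housed at the same low ambient temperature, lost their food at the start of day 2, and were touched gently whenever their oxygen consumption began to drop, until sampling late in the dark phase of that day. The comparison therefore holds fasting, touching and the day of sampling together, and these cannot be told apart. The mice were assigned by title, and all 8 libraries (of 38 in the series, 28 of them from the 1st run) were used. For reference, 8 mice that fasted in the cool and were left untouched to enter torpor (Mid, not all of them torpid when sampled), 4 that fasted at a high ambient temperature (HiT) and 4 that kept their food in the cool on day 2 (Fed) are set beside them, and the 4 mice refed on day 3 (Post) entered the fit.

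Promoter activity was read by nAnT-iCAGE, a form of cap analysis of gene expression in which capped 5′ ends of RNA are sequenced without amplification, so that each tag is taken to mark 1 start of transcription. The libraries held 23175690 to 28688487 tags in Dep and 24961938 to 29548749 in Pre, within 10819 promoters (tag clusters, of mouse build mm10), of which 9615 lay within 500 bases of an annotated start and bear a gene name here. Levels are given as TPM, the tags of a promoter scaled to a common library total of tags. Fold changes are those of edgeR's quasi-likelihood test on the tag counts with n = 4 mice in each group, on the log2 scale, Dep over Pre, with their standard error, and the FDR is the Benjamini-Hochberg adjusted p-value over all promoters. Because the TPM lack the TMM correction of that fit, ratios of TPM are somewhat lower than the fitted fold changes.

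A muscle without incoming food turns from glucose to fatty acids. Pyruvate dehydrogenase is then shut by its kinases, fatty acids reach the nucleus as ligands of PPARα, and low insulin lets FOXO transcription factors enter the nucleus, where they act on genes of protein breakdown and autophagy. Glucocorticoids and catecholamines rise in the fasted animal, the latter also in the cold. The catecholamines raise cyclic AMP in muscle. Stretch and contraction act on a separate set of genes for proteins of the Z-disc and the myotendinous junction.

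Of 10776 promoters with any tag, 2783 (25.8%) differed between Dep and Pre at an FDR below 0.05. Among them 1479 (13.7%) were higher and 1304 (12.1%) lower in the Dep mice. Most changes were small, with a median fold of 1.43 among the higher and 1.44 among the lower. At least 2-fold higher were 283 promoters (2.63%) and at least 2-fold lower 162 (1.5%). The TPM of the 4 Dep and the 4 Pre libraries did not overlap for 2653 promoters (24.6%). Upper-quartile scaling moved the split to 1171 higher and 1841 lower. With library size alone it was 365 and 1079, and the median of all promoters then lay at -0.18, so that the directions given here are relative to the TMM scale.

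**Figure D1:**
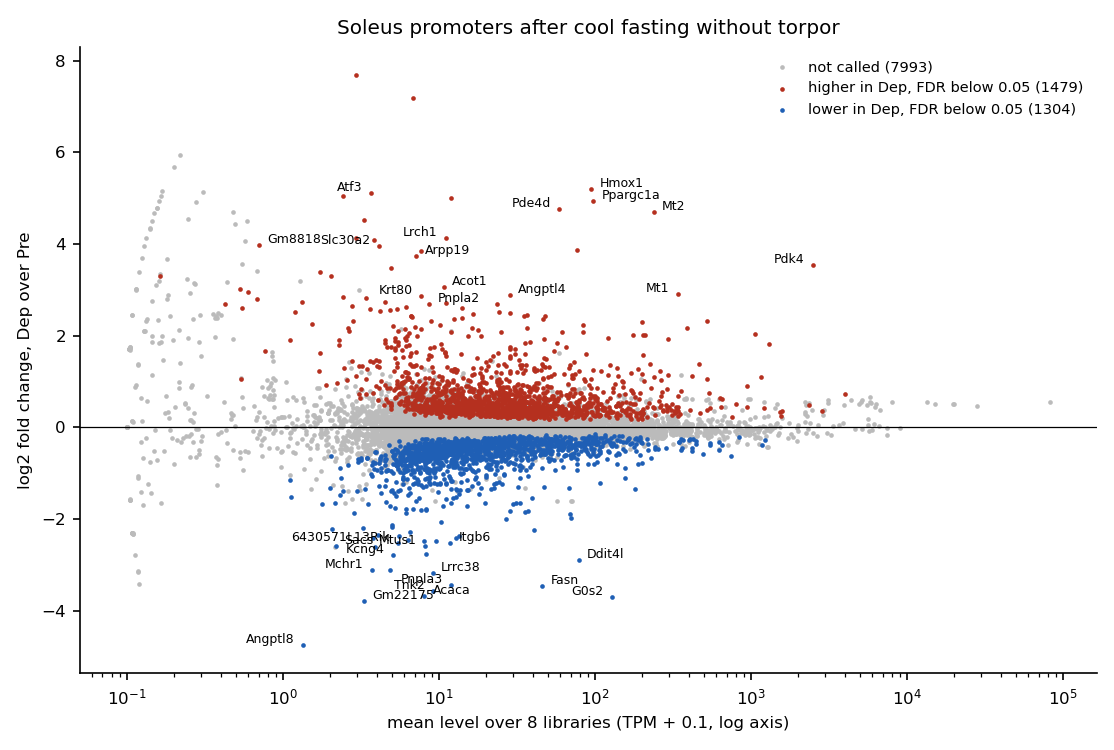
Each point is a promoter, with its mean TPM over the 8 Dep and Pre libraries plus 0.1 on the horizontal log axis and the log2 fold change Dep over Pre on the vertical axis. The 1479 red points and 1304 blue points passed an FDR of 0.05, the named points are the 15 annotated promoters with the largest changes in each direction whose groups did not overlap, and the 2 unnamed red points above 6 rest on the library Dep 1.

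The labelled tissue was checked first. All 12 genes of the soleus list, among them the slow myosin *Myh7*, were measured, and 1 of them, the Z-disc protein *Actn2*, passed the test (log2 fold change 0.49 ± 0.12, FDR 0.0032). *Myh7* stood at 911 to 1102 TPM in Dep and 1161 to 1452 TPM in Pre, without overlap, and did not pass the test on the TMM scale (FDR 0.24). The fast myosin *Myh4* ran from 8.36 to 238 TPM in Dep and from 4.54 to 458 TPM in Pre, a wide spread from mouse to mouse in both groups.

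The library Dep 1 stood apart. In it, 38 promoters had at least 4 times the TPM of every other Dep library, and 29 of these belonged to histone genes. It also held the neutrophil granule gene *Camp* at 53.2, 0, 0 and 0 TPM in Dep 1 to 4 and at 0, 0.114, 0.0377 and 0.263 TPM in Pre 1 to 4. The neutrophil gene *S100a8* stood at 23.4, 0.577, 0.256 and 0.385 TPM in Dep and at 0.0753 to 0.418 TPM in Pre. All 5 measured neutrophil markers, 1 of 5 red blood cell markers (*Slc4a1*) and 2 of 5 cell division genes passed the test as higher in Dep, and 0 of them did without Dep 1 (at an unadjusted p below 0.05, 1 cell division gene was then higher and 1 neutrophil marker lower). By DESeq2 on all libraries, 1 neutrophil marker was higher. Histone genes behaved alike, with 21 of 55 promoters higher and 1 lower, and 0 higher and 1 lower without that library. Tags of the near-identical histone copies, such as *Hist1h2ap* and *Hist1h2ao*, could also have been assigned to the wrong copy. Counts of the gene groups are therefore also given without Dep 1 wherever they change by more than 1 gene, and with library size alone wherever a count changes by more than 1.5 times and more than 1 gene.

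Markers of other cell types were then counted. Of 13 macrophage markers, 1 was higher and 1 lower, and the sum of the list was 51.8 to 133 TPM in Dep and 72.2 to 135 TPM in Pre. No adipocyte marker of 8 passed the test (0 by DESeq2 as well, 1 higher at an unadjusted p below 0.05), but the sum ranged from 247 to 1989 TPM in Dep and from 319 to 1066 TPM in Pre, with Dep 3 the highest (*Adipoq*, the fat cell hormone, at 6.11, 12.6, 40.2 and 4.28 TPM in Dep 1 to 4). The sum of the tendon markers was lower in Dep, with 539 to 673 TPM against 767 to 910 TPM and no overlap. The soleus list sum, in the same TPM without TMM correction, did not overlap either (23986 to 25680 against 25817 to 31000 TPM). Of the 8 tendon markers, 2 passed the test as lower (12.4% of all genes were), *Scx* (log2 fold change -1.23 ± 0.21, FDR 8.7e-05) and *Chad*. The sum of the red blood cell markers was 1832 to 4104 TPM in Dep and 3762 to 5625 TPM in Pre, with overlap. None of the 4 Schwann cell markers passed (0 by DESeq2 and 0 at an unadjusted p below 0.05), and no lymphocyte marker had a promoter in the table. In a whole muscle, fewer cells of a type and less RNA per cell cannot be told apart.

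**Figure D2:**
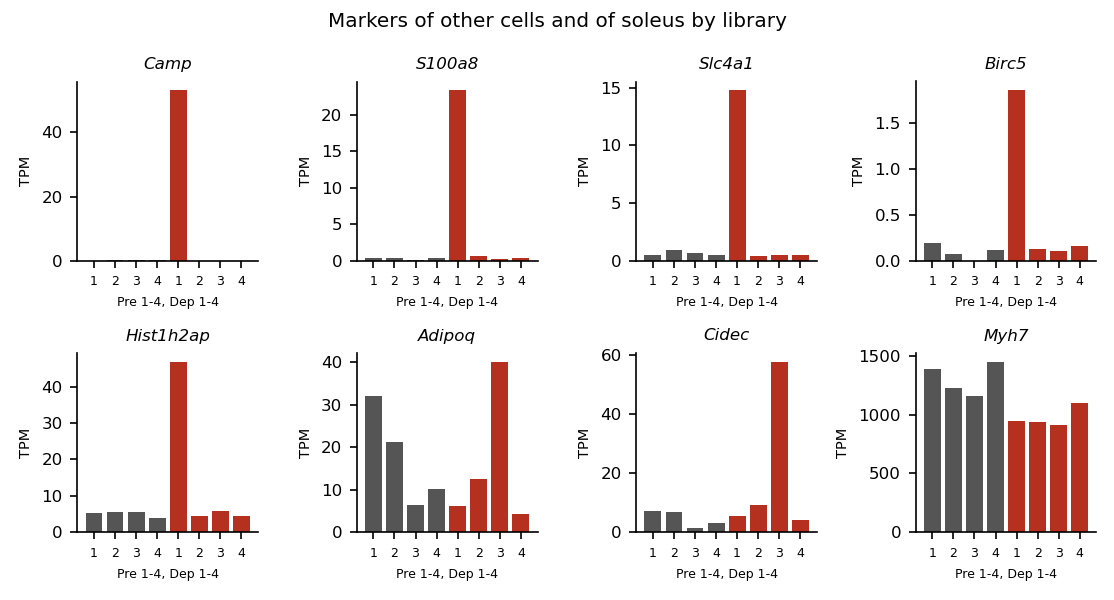
Bars give the TPM of 8 promoters in the Pre libraries 1 to 4 (gray) and the Dep libraries 1 to 4 (red), each panel with its own axis from 0. *Camp*, *S100a8*, *Slc4a1*, *Birc5* and *Hist1h2ap* stood out in Dep 1, and *Adipoq* and *Cidec* in Dep 3. The slow myosin *Myh7* was lower in every Dep than in every Pre library, and among the Dep libraries Dep 4 was the highest.

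Genes for the handling of fuel are described first. Of 27 measured genes for fatty acid oxidation and PPAR targets, 17 rose and 0 fell (over all 9054 genes, by their most active promoter, 13.9% rose and 12.4% fell), with a median log2 change of 0.33 (over all promoters, -0.0014). Without Dep 1 these were 14 and 0, and with library size alone 8 and 0. *Pdk4*, the kinase that shuts pyruvate dehydrogenase, stood at 3876, 4659, 5687 and 4047 TPM in Dep 1 to 4 and at 554, 325, 459 and 409.6 TPM in Pre 1 to 4. The lowest Dep library lay far above the highest Pre library, and the fitted fold was 11.6 (log2 fold change 3.54 ± 0.31, FDR 3.5e-08). *Ucp3*, a mitochondrial carrier of the inner membrane, had 57.6, 58.3, 71.1 and 45.05 TPM in Dep and 12.998, 10.2, 13.03 and 11.7 TPM in Pre, again without overlap (log2 fold change 2.43 ± 0.28, FDR 7.6e-07). *Acot2*, which releases free fatty acids from their CoA esters within mitochondria, rose 4.71-fold (log2 fold change 2.24 ± 0.19, FDR 2.5e-08), and its close paralog *Acot1*, with which tags could be exchanged, rose 8.38-fold from a lower level. The receptor gene *Ppara* itself was at 54.01, 58.7, 91.6 and 72.4 TPM in Dep and at 29.9, 25.2, 24.3 and 31.7 TPM in Pre (log2 fold change 1.49 ± 0.15, FDR 9.3e-08).

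The uptake of fatty acids changed less. The transporter *Cd36* (log2 fold change 0.51 ± 0.09, FDR 0.00019) and the carrier *Fabp3* (log2 fold change 0.72 ± 0.18, FDR 0.0045) rose by less than 2-fold. *Cpt1b*, the muscle form of the enzyme that commits fatty acids to the mitochondria, was at 126 to 158 TPM against 124 to 170.4 TPM (log2 fold change 0.18 ± 0.10) and did not pass the test (FDR 0.16). *Angptl4*, a secreted inhibitor of lipoprotein lipase, had 35.1, 48.2, 87.2 and 28.2 TPM in Dep and 13.03, 7.46, 4.37 and 4.29 TPM in Pre, a 7.38-fold rise (FDR 7.3e-05).

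Genes of the lipid droplet moved in both directions, 8 up and 4 down of 16 (5 and 4 with library size alone). *G0s2*, the inhibitor of adipose triglyceride lipase, was at 12.7, 24.8, 16.4 and 11.8 TPM in Dep and at 203, 165, 257 and 334 TPM in Pre. All Dep libraries lay far below all Pre libraries, a large fitted decrease (log2 fold change -3.70 ± 0.34, FDR 5.0e-08). The lipase it inhibits, *Pnpla2*, rose at its more active promoter, with 219 to 343 TPM in Dep against 92.7 to 138 TPM in Pre (log2 fold change 1.27 ± 0.19, FDR 2.1e-05) and also rose at a weaker promoter further downstream, where Pre held 1.98 to 3.41 TPM and Dep 12.3 to 19.7 TPM (log2 fold change 2.70 ± 0.26, FDR 9.3e-08). *Plin5*, which holds the lipase at droplets near mitochondria, rose 3.96-fold (FDR 4.1e-07). *Angptl8*, a partner of the lipoprotein lipase inhibitors that is induced by feeding, was at 0.0664, 0.0824, 0.0365 and 0.116 TPM in Dep and at 2.93, 1.90, 1.58 and 3.31 TPM in Pre, the largest decrease among annotated promoters with a mean of at least 1 TPM in a group and no overlap (log2 fold change -4.75 ± 0.78, FDR 6.2e-05).

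Fatty acid synthesis fell, with 13 of 18 genes lower and 1 higher and a median log2 change of -0.56. Fatty acid synthase *Fasn* stood at 6.34, 6.22, 10.8 and 4.16 TPM in Dep and at 120.3, 110.2, 40.002 and 68.1 TPM in Pre (log2 fold change -3.46 ± 0.57, FDR 6.3e-05). *Acly*, which supplies cytosolic acetyl-CoA, had 9.97, 10.5, 10.3 and 7.90 TPM in Dep and 46.4, 60.8, 28.3 and 42.3 TPM in Pre (log2 fold change -2.01 ± 0.25, FDR 2.3e-06). *Pnpla3*, a lipogenic lipid droplet gene, fell 10.9-fold (FDR 8.4e-06). The member that rose was *Acacb* (log2 fold change 0.85 ± 0.12, FDR 1.2e-05), the acetyl-CoA carboxylase of the mitochondrial surface, whose product blocks the entry of fatty acids. *Scd1*, the fatty acid desaturase, was at 138, 232, 929.9 and 73.6 TPM in Dep and at 699.9, 398, 131 and 189.5 TPM in Pre, with a wide spread within each group (log2 fold change 0.01 ± 0.79), and it did not pass the test. Its highest library, Dep 3, was also the highest for the adipocyte markers. The part of the adipocyte markers in the list was not tested. Of 13 genes for the synthesis and uptake of cholesterol, 8 fell and 0 rose (7 and 0 without Dep 1). *Mvd*, an enzyme of the mevalonate pathway, was at 3.09, 2.72, 2.12 and 3.28 TPM in Dep and at 7.40, 10.1, 7.50 and 8.35 TPM in Pre, without overlap (log2 fold change -1.36 ± 0.19, FDR 7.3e-06).

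Of 26 genes of glucose uptake, glycogen and glycolysis, 8 fell and 3 rose. The insulin-responsive transporter *Slc2a4* (GLUT4) fell 1.36-fold (log2 fold change -0.44 ± 0.09, FDR 0.00039) and lactate dehydrogenase *Ldha* 1.54-fold (log2 fold change -0.62 ± 0.13, FDR 0.0010). The basal transporter *Slc2a1* (GLUT1) rose instead, with 39.1 to 44.5 TPM in Dep against 12.8 to 19.7 TPM in Pre (log2 fold change 1.55 ± 0.22, FDR 1.2e-05), and so did *Txnip*, an inhibitor of glucose uptake (log2 fold change 1.23 ± 0.22, FDR 0.00016). Of the 13 genes of the pyruvate dehydrogenase complex and its control, *Pdk4* and *Pdp2* rose (log2 fold change 1.22 ± 0.19, FDR 4.2e-05) and *Pdp1* fell (log2 fold change -1.24 ± 0.16, FDR 4.6e-06), the latter both phosphatases that oppose the kinases. No gene of the tricarboxylic acid cycle passed the test (0 of 21, 0 by DESeq2, and 1 higher and 1 lower at an unadjusted p below 0.05), and of 78 nuclear subunits of the respiratory chain 0 rose and 2 fell (0 and 8 with upper-quartile scaling, 0 and 0 with library size alone, and by DESeq2 0 and 3).

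**Figure D3:**
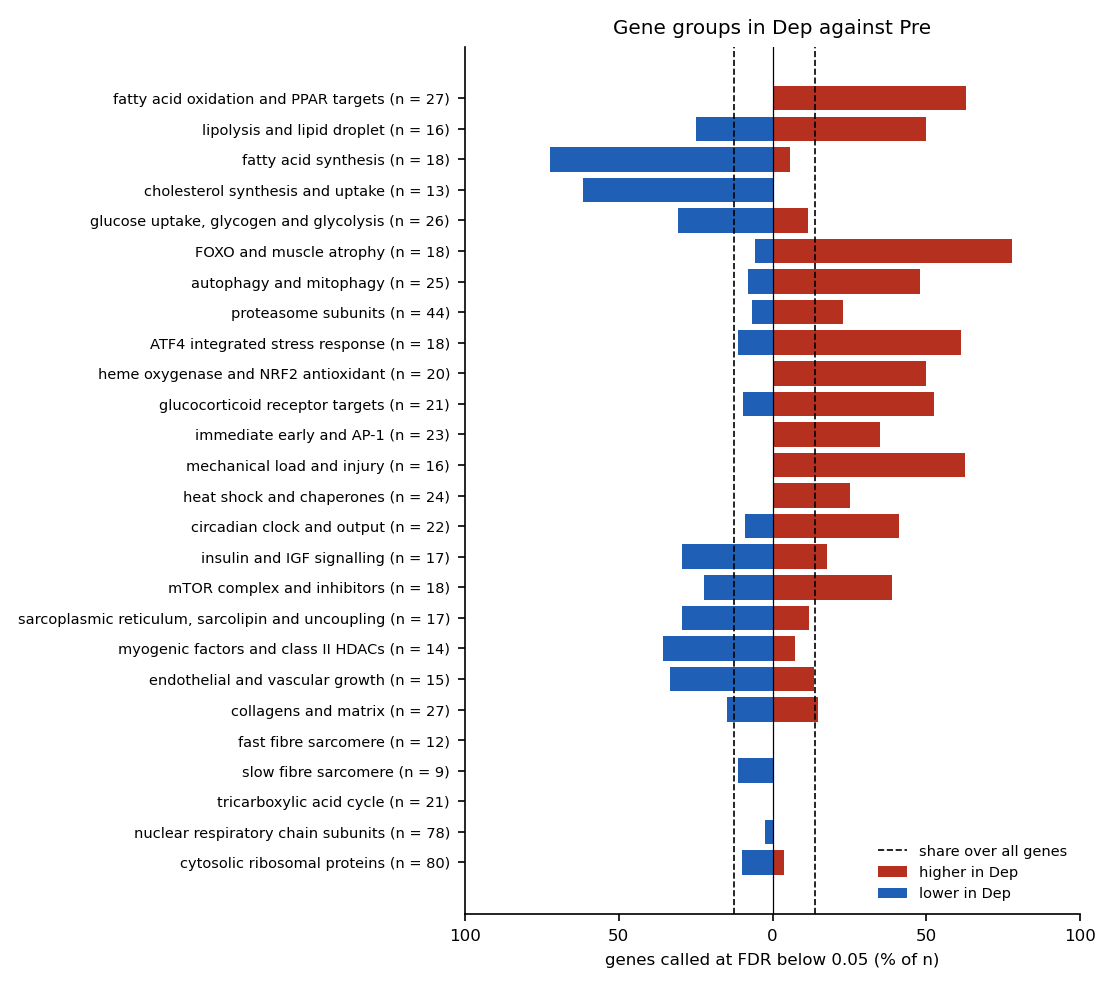
For 26 gene groups, bars to the right give the share of measured genes called higher in Dep and bars to the left the share called lower, in percent of the n in brackets, and dashed lines mark the shares over all 9054 genes, 13.9% and 12.4%. The FOXO, fatty acid oxidation, mechanical load and ATF4 groups reached furthest to the right, fatty acid and cholesterol synthesis furthest to the left, and the groups of the sarcomere, the respiratory chain and the ribosome stayed near or below the lines.

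The genes of muscle atrophy rose as a group. Of 18 FOXO and atrophy genes, 14 rose and 1 fell, with a median log2 change of 0.68. With library size alone 6 rose and 1 fell. *Trim63*, the ubiquitin ligase MuRF1, was at 597, 375, 1040.2 and 479 TPM in Dep and at 169, 185, 130.1 and 134 TPM in Pre (log2 fold change 2.16 ± 0.27, FDR 2.6e-06). Its counterpart *Fbxo32*, atrogin-1, was at 274, 179.5, 275 and 176 TPM in Dep and at 109.96, 137, 99.5 and 105 TPM in Pre (log2 fold change 1.18 ± 0.19, FDR 5.0e-05). The groups did not overlap for either gene. *Foxo3* rose 2.29-fold (FDR 3.5e-05), while *Foxo1* rose less (log2 fold change 0.69 ± 0.22, FDR 0.020) and overlapped between groups at 23.5 to 64.996 against 23.8 to 29.1 TPM. *Trim55*, a relative of *Trim63* at the sarcomere, was the member that fell (log2 fold change -0.50 ± 0.15, FDR 0.016).

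The FOXO letters GTAAACA were found in 1.99% of the 250 bases before the RefSeq start of 5576 promoters, in 1.83% of the 820 that rose and in 1.48% of the 676 that fell, on either strand. As examples of called genes of the FOXO and glucose groups that hold them, 80 bases each are printed from RefSeq, GRCm38.p6, with the match in capitals, for *Trim63* (chr4:134314890-134314969, plus strand, match beginning at -194 from the start) and for *Txnip* (chr3:96557797-96557876, plus strand, match at -121).
Trim63: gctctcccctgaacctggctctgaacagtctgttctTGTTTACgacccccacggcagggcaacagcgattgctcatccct
Txnip: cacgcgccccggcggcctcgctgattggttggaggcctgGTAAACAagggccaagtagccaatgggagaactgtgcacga
A match is a description of the letters and no evidence of binding.

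Of 25 genes of autophagy and mitophagy, 12 rose and 2 fell, and 5 and 2 with library size alone. *Gabarapl1*, which coats autophagosomes, had 280.1, 317, 403 and 314 TPM in Dep and 84.8, 77.5, 62.4 and 76.9 TPM in Pre, without overlap (log2 fold change 2.30 ± 0.23, FDR 9.4e-08). The cargo receptor *Sqstm1* (p62) rose 1.82-fold (FDR 3.8e-05) and the initiating kinase *Ulk1* 2.12-fold (FDR 0.00074), whereas *Tfeb*, the factor that drives lysosomal genes, fell 1.62-fold (FDR 0.0024). *Retreg1*, the receptor for autophagy of the endoplasmic reticulum, was at 848, 893, 941 and 736 TPM in Dep against 215, 197, 152 and 213 TPM in Pre (log2 fold change 2.32 ± 0.23, FDR 9.3e-08). Among 44 proteasome subunits 10 rose and 3 fell (7 and 3 without Dep 1, 6 and 4 with upper-quartile scaling, 1 and 3 with library size alone). The members that fell were *Psmb8* and *Psmb10* of the immunoproteasome and *Psme1*, its activator.

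Stress genes rose in several groups. Of 18 measured targets of ATF4, the factor of the integrated stress response, 11 rose and 2 fell, with a median log2 change of 0.50 (6 and 2 with library size alone). *Atf4* was at 101, 105, 124 and 96.6 TPM in Dep and at 53.1, 54.3, 41.2 and 56.7 TPM in Pre (log2 fold change 1.24 ± 0.13, FDR 2.5e-07). *Ppp1r15a* (GADD34), which reverses the translational block of this response, was at 53.02, 56.4, 75.7 and 48.8 TPM in Dep and at 16.4, 18.8, 13.97 and 23.6 TPM in Pre (log2 fold change 1.86 ± 0.17, FDR 5.0e-08). *Eif4ebp1*, which restrains cap-dependent translation, rose 2.24-fold (FDR 4.6e-06). *Ddit3* (CHOP) fell, however (log2 fold change -0.50 ± 0.15, FDR 0.013), and so did *Psph* of serine synthesis (log2 fold change -0.64 ± 0.13, FDR 0.00084).

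Of 20 genes of the NRF2 antioxidant group, 10 rose and 0 fell (10 and 2 with upper-quartile scaling, 5 and 1 with library size alone). The heme oxygenase *Hmox1* had the largest rise of any annotated promoter with a mean of at least 1 TPM in a group and no overlap. It stood at 204, 49.7, 191 and 287 TPM in Dep and at 5.92, 6.54, 4.07 and 6.84 TPM in Pre. Dep 2 was the lowest Dep library but still lay far above Pre, and the fitted fold was 36.8 (log2 fold change 5.20 ± 0.89, FDR 9.4e-05). *Gclm*, the modifier of glutathione synthesis, rose 2.93-fold (FDR 9.2e-06) and *Osgin1* 3.33-fold (FDR 3.0e-05). *Nfe2l2*, the gene of NRF2, rose 1.43-fold (FDR 2.0e-05).

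Both metallothioneins, which bind zinc and are induced by metals and glucocorticoids, rose strongly. *Mt2* was at 474, 177, 585 and 588 TPM in Dep and at 25.03, 21.1, 12.02 and 22.97 TPM in Pre (log2 fold change 4.69 ± 0.62, FDR 4.6e-06), and *Mt1* at 564, 316, 759 and 719 TPM in Dep and at 104, 81.01, 63.2 and 114 TPM in Pre (log2 fold change 2.90 ± 0.40, FDR 7.5e-06). Dep 2 was the lowest Dep library for both genes, as for *Hmox1*. Besides these, the zinc exporter *Slc30a1* rose (log2 fold change 1.06 ± 0.20, FDR 0.00030), and in all 4 of 13 genes of the group rose. The vesicular zinc transporter *Slc30a2* had 2 promoters. The upstream one was at 2.76 to 9.57 TPM in Dep and at 0.414 to 0.772 TPM in Pre (log2 fold change 3.96 ± 0.54, FDR 6.6e-06), and the other, at 3.38 to 4.82 TPM in Dep and 3.50 to 5.71 TPM in Pre, did not pass the test (FDR 0.80).

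Of 21 glucocorticoid receptor targets, 11 rose and 2 fell (9 and 2 without Dep 1). The cell cycle inhibitor *Cdkn1a* (p21) had 121, 163, 287 and 178 TPM in Dep and 55.1, 44.6, 37.3 and 81.6 TPM in Pre (log2 fold change 1.95 ± 0.28, FDR 1.2e-05). *Ddit4* (REDD1), an inhibitor of mTOR, was at 12.6, 12.3, 26.05 and 13.99 TPM in Dep and at 3.57, 3.08, 2.71 and 6.02 TPM in Pre (log2 fold change 2.24 ± 0.46, FDR 0.00076). The receptor gene *Nr3c1* fell 1.78-fold (FDR 0.00041). Among 24 heat shock proteins and chaperones 6 rose and 0 fell (2 and 0 with library size alone). *Hspb1* (log2 fold change 1.03 ± 0.15, FDR 1.1e-05) and the endoplasmic reticulum chaperone *Hspa5* (log2 fold change 1.06 ± 0.23, FDR 0.00098) rose, and so did *Hspa1a* (log2 fold change 0.98 ± 0.25, FDR 0.0043), whose tags cannot be safely parted from those of *Hspa1b*. The cold-inducible RNA-binding proteins *Rbm3* (28.5 to 34.9 against 37.7 to 49.5 TPM, FDR 0.16) and *Cirbp* (43.7 to 49.6 against 55.5 to 64.3 TPM, FDR 0.24) did not pass the test, although their TPM did not overlap between the groups.

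The immediate early genes divided. In this group of 23 genes, 8 rose and 0 fell (8 and 1 without Dep 1). *Csrnp1* (log2 fold change 2.14 ± 0.26, FDR 1.1e-06) and *Myc* (log2 fold change 2.06 ± 0.27, FDR 4.9e-06) rose. The best known genes of the group did not pass the test, with *Fos* at 1.56, 3.71, 6.03 and 1.89 TPM in Dep and 2.16, 2.93, 2.49 and 2.14 TPM in Pre (FDR 0.20), *Egr1* at 17.2 to 33.6 against 24.03 to 35.2 TPM (FDR 0.87), and *Nr4a1* at 4.24 to 11.9 against 6.50 to 13.1 TPM (FDR 0.77). *Jun* (FDR 0.061), *Dusp1* (FDR 0.12) and *Ier2* (log2 fold change 0.00 ± 0.12) missed the threshold as well.

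*Atf3*, a repressor of the ATF/CREB family that responds to stress, rose at both of its promoters. The downstream promoter (chromosome 1, minus strand, peak at 191183256, mm10) was at 18.6, 27.3, 38.1 and 28.1 TPM in Dep and at 9.78, 6.62, 4.26 and 8.35 TPM in Pre (log2 fold change 2.12 ± 0.28, FDR 5.3e-06). The upstream promoter (peak at 191217942) was weak, at 1.73, 16.9, 5.74 and 3.51 TPM in Dep and at 0.0322, 0.114, 0.301 and 0.451 TPM in Pre (log2 fold change 5.11 ± 0.98, FDR 0.00036). Dep 2 was the highest library for the upstream promoter and Dep 3 for the downstream one, and neither promoter overlapped between groups.

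The stress promoters with a match are printed for *Btg2*, an antiproliferative gene that rose (log2 fold change 1.38 ± 0.26, FDR 0.00031), and for *Ppp1r15a* and *Atf3*. The CRE letters TGACGTCA occur in 3.25% of all 5576 promoters, 3.41% of those that rose and 3.25% of those that fell. The composite ATF4-C/EBP letters TGATGNAA occur in 1.67%, 2.44% and 1.33%. The stretches are chr1:134079276-134079355, chr7:45526269-45526348 and chr1:191183404-191183483 of GRCm38.p6, all on the minus strand, with matches beginning at -166, -12 and -110 from the RefSeq start.
Btg2: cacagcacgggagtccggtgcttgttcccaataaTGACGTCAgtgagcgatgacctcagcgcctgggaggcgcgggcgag
Ppp1r15a: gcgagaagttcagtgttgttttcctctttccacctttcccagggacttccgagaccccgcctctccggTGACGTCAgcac
Atf3: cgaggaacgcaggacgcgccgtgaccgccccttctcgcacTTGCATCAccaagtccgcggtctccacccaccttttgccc
The capitals mark the CRE in the first and second sequence and the ATF4-C/EBP letters, read on the other strand, in the third.

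Genes of mechanical load and injury rose, 10 of 16 with 0 falling and a median log2 change of 0.72. With library size alone 8 rose and 1 fell. *Xirp1*, an actin-binding repair protein of the myotendinous junction, was at 1296, 2019, 1819.8 and 1567 TPM in Dep and at 435, 384, 375 and 653 TPM in Pre (log2 fold change 2.05 ± 0.22, FDR 2.9e-07). *Ankrd2*, a stretch-responsive protein of the Z-disc and I-band, was at 1964, 2114, 1758 and 2089.8 TPM in Dep and at 568, 669, 579.8 and 754 TPM in Pre (log2 fold change 1.83 ± 0.15, FDR 2.5e-08). *Csrp3*, the Z-disc protein MLP, rose 2.97-fold (FDR 1.4e-06), and *Ankrd1* 2.49-fold (FDR 8.8e-06). The TPM did not overlap for any of these 4 genes. Of 8 tendon markers 2 were called lower, as given above, and their part was not tested.

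**Figure D4:**
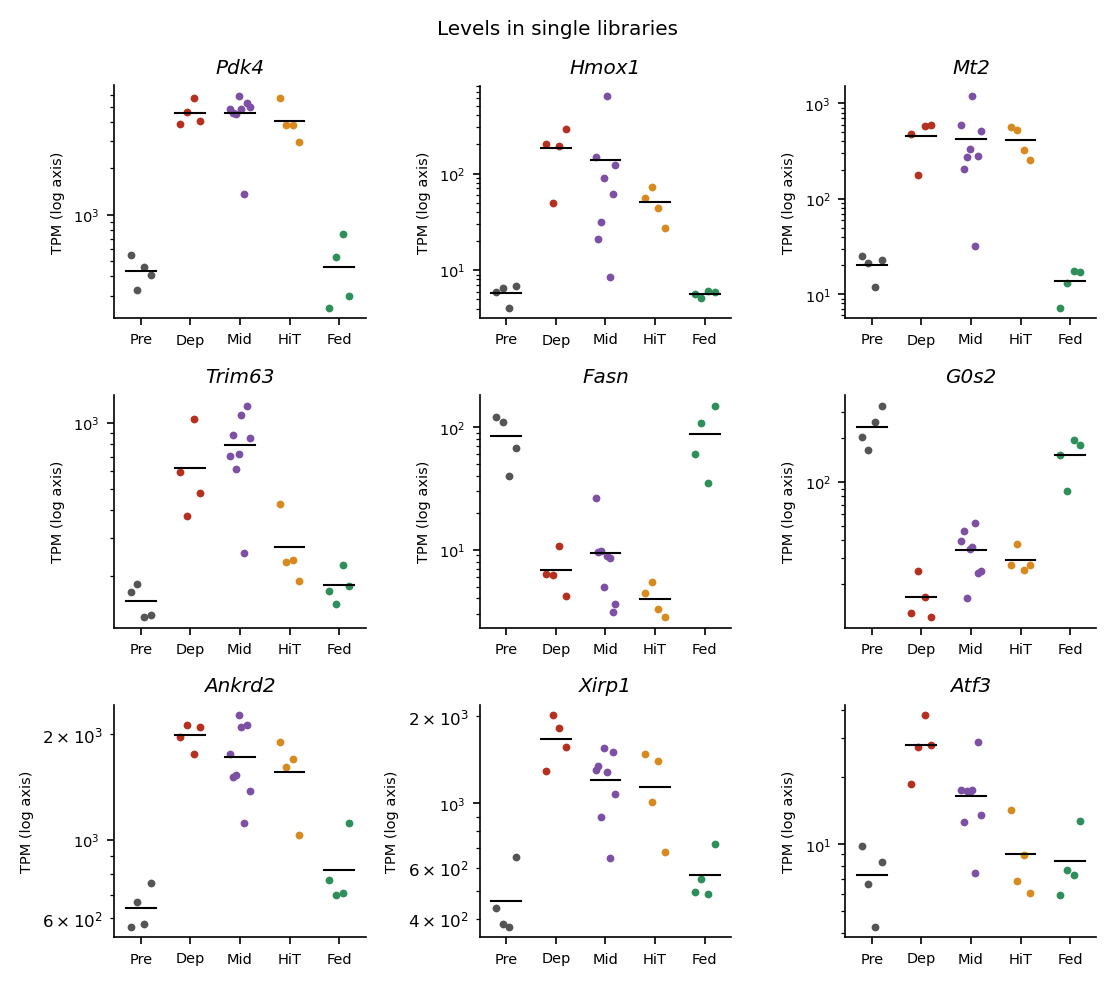
Points are libraries and bars are group means for 9 promoters, in TPM on a log axis of its own range in each panel, for 4 Pre, 4 Dep, 8 Mid, 4 HiT and 4 Fed mice (*Atf3* is the downstream promoter). In all 9 panels the Dep and Pre points did not overlap. For *Pdk4*, *Hmox1*, *Mt2*, *Fasn* and *G0s2* every Mid and HiT point also lay outside the range of Pre, on the side of Dep.

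Nutrient signalling moved in both directions. Of 17 genes of insulin and IGF signalling, 3 rose and 5 fell (1 and 5 with library size alone). The insulin receptor substrate *Irs2* rose, with 65.3, 64.9, 143 and 50.98 TPM in Dep and 24.2, 39.7, 21.2 and 28.5 TPM in Pre (log2 fold change 1.66 ± 0.27, FDR 5.0e-05), and the receptor *Insr* rose 1.39-fold (FDR 0.00020). *Igfbp5*, a binding protein of IGF, fell 2.56-fold (FDR 2.1e-05), and the adaptor *Grb14*, which inhibits the insulin receptor, fell 2.23-fold (FDR 3.8e-05). Of 18 genes of mTOR and its inhibitors, 7 rose and 4 fell (4 and 4 with library size alone). The inhibitor *Sesn1* rose 3.27-fold (FDR 2.6e-05), while *Ddit4l*, a paralog of *Ddit4*, was at 25.7, 20.4, 12.1 and 8.52 TPM in Dep and at 126, 181, 124 and 131 TPM in Pre (log2 fold change -2.89 ± 0.35, FDR 1.4e-06). The paralogs thus moved in opposite directions.

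Of 22 genes of the circadian clock and its output, 9 rose and 2 fell (8 and 4 with upper-quartile scaling, 3 and 2 with library size alone). *Arntl* (BMAL1) rose 1.55-fold (FDR 1.8e-05), *Cry2* 1.84-fold (FDR 0.00012) and *Per1* 2.37-fold, from 7.62, 6.20, 5.27 and 11.4 TPM in Pre to 17.8, 13.5, 19.8 and 13.1 TPM in Dep (FDR 0.00081). *Bhlhe40* (DEC1) fell 2.47-fold (log2 fold change -1.30 ± 0.18, FDR 7.6e-06) and *Tef* 1.52-fold (log2 fold change -0.60 ± 0.20, FDR 0.028). *Dbp* (FDR 0.93) and *Nr1d1* (FDR 0.70) did not pass the test. *Klf15*, a glucocorticoid and clock target that drives the breakdown of branched-chain amino acids, rose 2.37-fold, with 47.6, 48.3, 102 and 34.99 TPM in Dep, where Dep 3 was highest, and 26.2, 27.7, 25.95 and 27.4 TPM in Pre (FDR 0.00086).

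The E-box letters CACGTG, which bind BMAL1 and also MYC and USF proteins, occur in 9.33% of all 5576 promoters, 11.95% of those that rose and 6.51% of those that fell. They are shown for *Klf15* (chr6:90462336-90462415, plus strand, matches at -228 and -172) and *Irs2* (chr8:11008930-11009009, minus strand, match at -44), in GRCm38.p6 with the match in capitals.
Klf15: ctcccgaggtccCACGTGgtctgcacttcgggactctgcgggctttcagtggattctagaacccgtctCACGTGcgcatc
Irs2: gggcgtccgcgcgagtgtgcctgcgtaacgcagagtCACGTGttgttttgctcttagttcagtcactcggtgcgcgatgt

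Calcium handling, myogenic and vascular genes contained more members that fell. Of 17 genes of the sarcoplasmic reticulum, sarcolipin and uncoupling, 5 fell and 2 rose, and the ones that rose were the uncoupling proteins *Ucp3* and *Ucp2*. Sarcolipin *Sln*, which uncouples the calcium pump and supports heat production in muscle, was at 106, 109, 76.8 and 109 TPM in Dep and at 214, 187, 207 and 242 TPM in Pre (log2 fold change -0.88 ± 0.27, FDR 0.017). *Jph2*, which joins the reticulum to the transverse tubules, fell 1.73-fold (FDR 0.00032). Of 14 myogenic factors and class II histone deacetylases, 5 fell and 1 rose. *Hdac9* was at 1.93, 2.84, 1.17 and 0.925 TPM in Dep and at 8.46, 12.6, 10.9 and 11.1 TPM in Pre (log2 fold change -2.46 ± 0.31, FDR 2.2e-06), and *Myod1* at 6.01, 6.34, 4.68 and 5.74 TPM in Dep and at 16.3, 18.3, 19.4 and 21.7 TPM in Pre (log2 fold change -1.54 ± 0.35, FDR 0.0019). Of 15 endothelial and vascular growth genes, 5 fell and 2 rose (5 and 0 with library size alone). The vessel-stabilizing *Angpt1* fell 2.36-fold (FDR 9.2e-06) and the receptor *Kdr* 1.501-fold (FDR 0.0046), and *Vegfa* rose 1.35-fold (FDR 0.0086).

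Collagens and matrix genes split evenly, with 4 of 27 higher and 4 lower (2 and 4 with library size alone). *Lox*, which crosslinks collagen, rose 2.46-fold (FDR 0.00022), and *Col15a1* of the basement membrane fell 2.49-fold (FDR 0.00060). At the neuromuscular junction 2 of 11 genes rose, the kinase *Musk* (log2 fold change 0.83 ± 0.14, FDR 0.00013) and its activator *Dok7* (log2 fold change 0.96 ± 0.18, FDR 0.00020), and 3 fell, among them the agrin receptor *Lrp4* (log2 fold change -0.88 ± 0.13, FDR 2.4e-05). The tendon marker sums in TPM were lower beside these matrix counts, as was the sum of the soleus list. The part of the tendon markers was not tested. *Ampd3*, an AMP deaminase, had 51.3, 40.9, 52.4 and 44.4 TPM in Dep and 9.78, 9.09, 8.02 and 10.9 TPM in Pre (log2 fold change 2.50 ± 0.28, FDR 5.3e-07), in a group of 15 adenylate genes with 2 higher and 3 lower (1 and 1 with library size alone). The amino acid transporter *Slc38a2* (SNAT2) rose 2.55-fold (FDR 8.8e-06), in a group of 13 with 5 higher and 1 lower (1 and 1 with library size alone).

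Genes of the contractile and synthetic machinery moved in both directions or did not pass the test. No gene of the fast sarcomere passed the test (0 of 12 by edgeR, 1 lower by DESeq2, 2 lower without Dep 1, 3 lower with upper-quartile scaling and 3 lower at an unadjusted p below 0.05), and of the slow sarcomere 1 of 9 did, *Casq2*, which fell. Of 80 cytosolic ribosomal proteins 3 rose and 8 fell, with 3 and 3 without Dep 1, 2 and 21 under upper-quartile scaling and 0 and 2 with library size alone. Mitochondrial ribosomal proteins had 7 higher and 9 lower of 76, with 4 and 7 without Dep 1, 3 and 16 under upper-quartile scaling and 0 and 4 with library size alone. Of 52 translation factors 15 rose and 4 fell, but 11 and 2 without Dep 1, 7 and 6 with upper-quartile scaling and 0 and 2 with library size alone. Of 34 tRNA synthetases 9 rose and 1 fell, with 6 and 4 under upper-quartile scaling and 0 and 0 with library size alone. The members that rose did so by small amounts, such as *Eif3a* (log2 fold change 0.49 ± 0.08, FDR 3.1e-05) and *Nars* (log2 fold change 0.51 ± 0.08, FDR 2.4e-05).

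The remaining groups were small or mixed. Genes of the PGC-1 and ERR circuit had 5 higher and 2 lower of 19, the cyclic AMP response 3 and 3 of 18, growth arrest 4 and 3 of 14, myostatin, BMP and SMAD signalling 1 and 3 of 14, branched-chain amino acid breakdown 3 and 0 of 19, ketone body use 1 and 2 of 7, and cold-inducible and splicing genes 3 and 1 of 20. With library size alone these became 1 and 1 for the PGC-1 and ERR circuit, 2 and 3 for growth arrest, 1 and 0 for branched-chain amino acid breakdown and 0 and 1 for the cold-inducible and splicing genes.

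Some genes changed the promoter they used. Of 995 promoters in 458 genes with more than 1, 86 (8.64%) in 69 genes changed their share within the gene at an FDR below 0.05 by edgeR's diffSpliceDGE. By the separate test of the level of each promoter, 21 of the 458 genes had promoters called in opposite directions. *Ppargc1a*, the coactivator PGC-1α of mitochondrial genes, was started at its upstream promoter (chromosome 5, minus strand, peak at 51567727) at 156, 156, 246 and 196 TPM in Dep and at 5.60, 2.36, 1.47 and 18.99 TPM in Pre (log2 fold change 4.93 ± 0.70, FDR 9.8e-06). The other promoter (peak at 51553874) was at 33.5, 29.9, 44.7 and 23.2 TPM in Dep and at 41.2, 45.3, 38.5 and 44.02 TPM in Pre and did not pass the test (FDR 0.37). The upstream promoter thus gave 82.4 to 89.4% of the tags of the gene in Dep and 3.68 to 30.1% in Pre, where Pre 4 was the highest.

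*Pde4d*, a phosphodiesterase that degrades cyclic AMP, had 4 promoters. The one furthest downstream (chromosome 13, plus strand, peak at 109925093) was at 71.4, 130.3, 153 and 98.96 TPM in Dep and at 2.99, 3.81, 2.00 and 10.1 TPM in Pre (log2 fold change 4.77 ± 0.50, FDR 2.2e-07), and it gave 60.1 to 77.3% of the tags of the gene in Dep against 4.36 to 16.4% in Pre. None of the other 3 passed the test for its level. The downstream promoter of *Lrch1* gave 58.4 to 73.99% in Dep and 8.37 to 16.2% in Pre, and that of *Casz1*, a zinc finger factor, 60.4 to 66.9% and 16.6 to 22.9%. In *Sar1a*, a GTPase of vesicle export, it gave 28.9 to 38.6% and 12.2 to 17.7%. The upstream promoter of *Atf3* gave 8.50 to 38.2% in Dep and 0.328 to 6.61% in Pre. In *Casz1* the upstream promoter fell (log2 fold change -0.89, FDR 0.00021) while the downstream one rose (1.99, FDR 2.8e-07).

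Shares also fell. The upstream promoter of *Acaca*, the cytosolic acetyl-CoA carboxylase, was at 0.897, 1.40, 1.35 and 0.501 TPM in Dep and at 19.9, 21.2, 8.10 and 10.4 TPM in Pre (log2 fold change -3.67 ± 0.62, FDR 8.9e-05), and it gave 3.65 to 9.09% of the tags of the gene in Dep against 26.9 to 41.3% in Pre. A promoter of *Mtus1*, a microtubule-associated gene, gave 2.71 to 3.78% in Dep and 11.1 to 20.6% in Pre (log2 fold change -2.58 ± 0.33, FDR 2.6e-06). *Retreg1* rose at its downstream promoter, described above, while the upstream one went from 4.90 to 6.54% in Pre to a smaller share, 1.25 to 1.70%, in Dep. In *Arpp19*, an inhibitor of protein phosphatase 2A, a minor promoter was at 10.7 to 17.5 TPM in Dep and 0.685 to 1.29 TPM in Pre (log2 fold change 3.74 ± 0.39, FDR 2.3e-07), whereas the main one, at 81.9 to 101 TPM in Dep, did not pass the test (FDR 0.41).

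**Figure D5:**
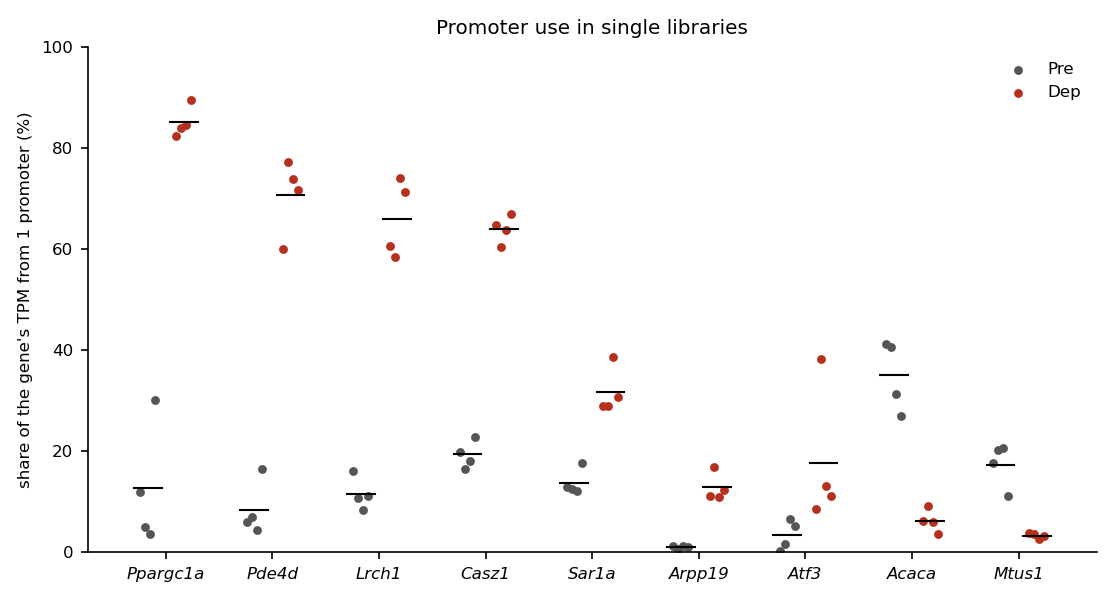
For 9 genes, points give the share of the TPM of the gene that came from 1 of its promoters in each of the 4 Pre (gray) and 4 Dep (red) libraries, in percent, with the group means as bars. The groups did not overlap in any of the 9, and *Ppargc1a* and *Pde4d* show the widest gaps.

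Promoters away from any annotated start were frequent among the strong rises. They made up 1185 of 10776 promoters, 10.3% of the higher, 86 of the 1304 lower, 26.1% of those at least 2-fold higher and 9.26% of those at least 2-fold lower. The strongest, chosen after its values were seen, lay in an intron of *Adprhl1*, a heart and muscle gene, on its strand (chromosome 8, peak at 13227882). It had 12.1, 23.6, 34.1 and 21.8 TPM in Dep and 0.708, 0.533, 0.377 and 1.58 TPM in Pre, without overlap (log2 fold change 5.004 ± 0.49, FDR 9.3e-08). Of the 5 that rose most, 3 lay in exons of *Pdk4*, and the most active of them (chromosome 6, minus strand, peak at 5484165) was at 127, 142, 159 and 139.6 TPM in Dep and at 15.6, 5.97, 12.5 and 9.47 TPM in Pre (log2 fold change 3.86 ± 0.38, FDR 9.3e-08), beside a log2 fold change of 3.54 at the gene's own promoter. Whether the tags within these exons mark separate starts of transcription was not tested. Among those that fell, 1 in an intron of the nucleotidase gene *Nt5c3*, on its strand (chromosome 6, peak at 56888702), was at 1.33, 0.906, 0.840 and 0.424 TPM in Dep and at 6.56, 11.1, 8.40 and 8.65 TPM in Pre (log2 fold change -3.12 ± 0.42, FDR 5.4e-06), again without overlap.

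The Dep mice were then set beside the other groups of day 2, all tests using the same 4 Dep libraries. The distance between 2 libraries was taken over the 500 promoters that differed most in that pair, so that it rests on extremes. The median distance between a Dep and a Mid library was 1.81 (1.28 to 2.60), and that among the Dep libraries 1.84. Between Dep and Pre it was 2.24, and among the Pre libraries, which lay closer together, 1.38. Against the Mid mice, 219 promoters differed (2.03%), 125 higher (1.16%) and 94 lower (0.872%) in Dep. That count is unstable, with 46 without Dep 2, 63 without Dep 4, 125 without Dep 1 and 2 when only the compared groups were fitted. No gene of fatty acid oxidation, fatty acid synthesis, cholesterol synthesis, FOXO or autophagy was called in that comparison by edgeR. By DESeq2 0 to 1 gene of each of these 5 lists was called, and 2 to 4 had an unadjusted p below 0.05 in edgeR. *Pdk4*, for example, had a median of 4889 TPM in Mid, and the difference of Dep from Mid was 0.12 ± 0.24 (log2, FDR 0.83). The library Mid 6 lay apart, with *Pdk4* at 1361 TPM, where the next lowest Mid library, Mid 3, held 4534 TPM. Mid 6 was also lowest for *Mt2*, at 31.9 TPM with Mid 2 next at 204 TPM. No Mid library was left out of the fit, so its weight in the few calls was not tested. Higher in Dep than in Mid were 4 of 23 immediate early genes (1.27% of all genes were), among them the downstream promoter of *Atf3*, with a median of 17.2 TPM in Mid (0.88 ± 0.23, FDR 0.043), and *Dusp1* (0.71 ± 0.15, FDR 0.016). Lower in Dep were 4 of 22 clock genes (0.939% of all genes were), among them *Tef* (-0.88 ± 0.18, FDR 0.016) and *Nr1d1* (-0.75 ± 0.18, FDR 0.029). In the fit of only Dep and Mid none of these list members passed.

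Against the HiT mice, which fasted in the warm, 2861 promoters differed (26.5%), with 1213 (11.3%) higher and 1648 (15.3%) lower in Dep. All 13 macrophage markers were lower in Dep than in HiT (16.8% of all genes were), with sums of 51.8 to 133 TPM against 203 to 608 TPM, and their part in the differences was not tested. *Pdk4* (0.16 ± 0.28, FDR 0.72) and *Mt2* (0.18 ± 0.53, FDR 0.84) did not pass the test between these groups. The upstream promoter of *Ppargc1a* had a median of 29.8 TPM in HiT and was higher in Dep (2.61 ± 0.62, FDR 0.0025), and so were *Ampd3*, with 13.6 TPM in HiT (1.72 ± 0.27, FDR 3.4e-05), *Trim63* (1.19 ± 0.27, FDR 0.0016) and *Ppara* (1.32 ± 0.14, FDR 3.3e-07). The upstream promoter of *Atf3* was at 10.1 to 30.9 TPM in HiT and at 0.314 to 8.08 TPM in Mid, and neither its difference from HiT (-1.62 ± 0.73, FDR 0.11) nor that from Mid (1.84 ± 0.62, FDR 0.11) passed the test. Of 78 respiratory chain subunits, 49 were higher in Dep and 0 lower (10.6% of all genes were higher), and of 80 cytosolic ribosomal proteins 1 was higher and 49 lower. The genes of mechanical load and injury, which rose against Pre, were not highest in Dep as a group. Of these 16 genes, 2 were higher and 7 lower in Dep than in HiT (10.6% and 16.8% of all genes were), with a median log2 difference of -0.55. Their sums were 7364 to 8791 TPM in Dep and 6158 to 11727 TPM in HiT. *Ankrd1* was much lower in Dep than in HiT, where its median was 552 TPM (-2.89 ± 0.19, FDR 1.8e-10).

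Against the Fed mice, which were kept in the cool with food on the same day, 4160 promoters differed (38.6%), with 2005 (18.6%) higher and 2155 (20%) lower in Dep. These mice share the day and the ambient temperature of the Dep mice. *Hmox1* had a median of 5.74 TPM in Fed (5.27 ± 0.89, FDR 6.2e-05), *Mt2* of 15.1 TPM (5.29 ± 0.64, FDR 1.2e-06) and *Pdk4* of 417 TPM (3.53 ± 0.31, FDR 5.5e-08). *Fasn* was lower in Dep than in Fed, with a log2 difference of -3.52 ± 0.57 (FDR 3.9e-05) and *G0s2* likewise, with -2.99 ± 0.33 (FDR 4.5e-07). Of the fatty acid oxidation group 23 of 27 were higher and 0 lower (18.2% and 21% of all genes were), of the FOXO group 12 and 1 of 18, and of fatty acid synthesis 1 and 13 of 18. Unlike against Pre, 39 of 78 nuclear respiratory chain subunits were higher than in Fed and 0 lower (median log2 difference 0.25). The same counts were 28 and 0 of 80 cytosolic and 23 and 1 of 76 mitochondrial ribosomal proteins, and 24 and 4 of 44 proteasome subunits. With library size alone, 486 promoters were higher and 2364 lower in Dep than in Fed, so these directions also depend on the TMM scale. Sarcolipin, which fell against Pre, had a median of 113 TPM in Fed and did not pass the test there (-0.08 ± 0.27, FDR 0.83), and neither did *Slc2a4* (-0.01 ± 0.09, FDR 0.95).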

How the data were processed

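Capped RNA ends of mouse soleus were sequenced by nAnT-iCAGE. Per the labels, builds mm10 and GRCm38 and the tools BWA and HISAT2 were used, and the deposited table gives raw tag counts per tag cluster and, normalised by the authors, TPM (tags scaled to a common library total). Groups follow the sample titles. The condition label of Fed (starvation) and the series text on HiT (with food) conflict with the study's methods, by which Fed kept food and HiT fasted, and the methods were followed. The mice were not randomized, and 1 library was made per mouse, so that p-values measure the spread between mice. The 28 libraries of the 1st run were used.

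Counts were fitted over the 10776 clusters with any tag by edgeR 4.0.16 (R 4.3.3, limma 3.58.1) with TMM factors and a term for group, by the quasi-likelihood F test, with Benjamini-Hochberg FDR below 0.05. Promoter use was tested by diffSpliceDGE. On simulated counts with a log2 fold change of 1, 168 of 200 changed promoters were recovered with 6 false calls among 10772, and 68 of 100 changed genes of 458 with 0 false calls for promoter use. No libraries were found to be duplicates. The most active promoter stood for a gene in the lists. Levels are the deposited TPM.

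Named were, by rule, the 15 annotated promoters with the largest change in each direction (FDR below 0.05, no overlap of TPM, a group mean of at least 1 TPM, 1 per gene), up to 3 promoters with the smallest FDR in each direction of each of 50 lists, all promoters of *Atf3* and *Ppargc1a*, and the 5 genes with the smallest FDR for promoter use. A gene that this rule names is not reported here. A further 39 promoters, among them those of *Fos*, *Egr1*, *Foxo1*, *Scd1*, *Cpt1b*, *Sln*, *Myh7*, *Pdk4* in its exon and *Adprhl1*, were chosen after their values were seen. The members and lists were chosen with earlier results of these data known.

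RefSeq promoters (GRCm38.p6) were matched where a cluster peak lay within 100 bases of the RefSeq start, for 5576 promoters, and the 250 bases before it were searched on both strands for 12 motifs. These were the metal element TGCACNC or TGCGCNC, CRE TGACGTCA, AP-1 TGANTCA, antioxidant element TGACNNNGC (which can overlap the CRE), FOXO GTAAACA, ATF4-C/EBP TGATGNAA, E-box CACGTG, sterol element TCACNCCAC, D-box TTANGTAA, heat shock element GAANNTTC, DR1 (2 copies of AGGNCA in the same direction, 1 base apart) and TATA box TATAAA. Alternatives were DESeq2 1.42.0, other scalings and filters, a likelihood ratio test, only the compared groups, all 38 libraries and a replicate block. Each Dep or Pre replicate was also left out in turn, but no replicate of the other groups.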

Additional observations from a re-analysis of the deposited data

Results flagged for a closer look

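Of 246 groups of 4 libraries checked for 123 promoters, 18 had a library far from the other 3, where chance gives about 1 group in 20. In Dep 1 these were *Camp* at 53.2 TPM and *S100a8* at 23.4 TPM. Dep 3 was the highest for *Pnpla2* (343 TPM at the main and 19.7 TPM at the weaker promoter), *Ddit4* (26.05 TPM), *Irs2* (143 TPM), *Insr* (81.4 TPM), *Sesn1* (76.4 TPM against 33.9 to 37.97 TPM in the other Dep libraries) and the downstream promoter of *Sar1a* (59.2 TPM), and the lowest for *Sln* (76.8 TPM). Dep 4 was the highest for *Myh7* (1102 TPM). Among the Pre libraries, Pre 2 was the highest for *Ldha* (1218 TPM), *Grb14* (28.996 TPM) and *Ddit4l* (181 TPM), Pre 3 the lowest for *Osgin1* (1.77 TPM), and Pre 4 the highest for *Fabp3* (3836 TPM), *Csrp3* (153 TPM) and the downstream promoter of *Casz1* (3.65 TPM).

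For 11 of the 123 promoters checked, the difference from Pre was itself different between Dep and Mid. This was tested by the direct comparison of Dep with Mid in edgeR, which shares the Dep libraries. Over all 10776 promoters 219 (2.03%) were called in that comparison, and the checked promoters were not a random choice. On the log2 scale, Dep over Mid was 0.88 for the downstream promoter of *Atf3* (FDR 0.043), 0.71 for *Dusp1* (FDR 0.016), 0.41 for *Jun* (FDR 0.016), 0.65 for *Csrp3* (FDR 0.033), 0.60 for *Slc38a2* (FDR 0.045) and 1.54 for the unannotated promoter in *Adprhl1* (FDR 0.016). It was -0.88 for *Tef* (FDR 0.016), -0.75 for *Nr1d1* (FDR 0.029) and -0.41 for *Cirbp* (FDR 0.027). For *Camp* (8.67) and *S100a8* (4.82) it rested on Dep 1. The number of calls in this comparison depended on single libraries and on the fit.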

How the results depend on the processing

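For Dep against Pre, the 2783 calls ranged from 2219 to 2544 with 1 replicate left out, were 3010 by DESeq2, 3012 with upper-quartile scaling and 2682 with the replicate block, and fell to 1444 with library size only (25.3% of them higher in Dep, against 53.1%). For Dep against Mid, the 219 calls were 46 (without Dep 2) to 310.0 (without Dep 3) with 1 replicate left out, 125 without Dep 1, 63 without Dep 4, 479 by DESeq2, 343 by the likelihood ratio test, 407 with the replicate block, 9 with library size only and 2 with only the compared groups. For Dep against HiT, 2861 calls became 1108 with library size only and 2305 to 2814 with 1 replicate left out. Dep against Fed gave 3223 to 4107 of 4160, and promoter use 68 to 82 of 86. Same-numbered Dep and Pre libraries showed no shared deviation from their group means (r of -0.17, 0.03, -0.24 and -0.14). Differently numbered ones gave -0.41 to 0.26. No pairing by number was seen, but with 4 libraries in each group this check cannot exclude one. With 1 replicate left out, *Camp* ran from -4.51 (without Dep 1) to 8.17, *Ngp* from -2.78 (without Dep 1) to 8.10 and *Slc4a1* from -0.33 (without Dep 1) to 3.22, and all 3 also reversed, to -4.42, -2.71 and -0.32, in the fit of only Dep and Pre without Dep 1. Of 201 called promoters named by rule, 76 missed the threshold in at least 1 setting. The cause of these changes was not tested. Levels near 0.1 TPM rest on few tags.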

Other observations

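Motif letters were also counted for groups not described above, over the 250 bases before 5576 starts. The metal element letters occurred in 31.96% of all promoters, 31.6% of those that rose and 32.8% of those that fell. The antioxidant element letters occurred in 12.6%, 13.8% and 11.1%, the AP-1 letters in 3.95%, 3.05% and 3.70%, and the heat shock letters in 4.61%, 5.24% and 4.44%. Among the 102 promoters that rose at least 2-fold, the AP-1 letters occurred in 9 (8.82%) and the FOXO letters in 5 (4.90%). Among the 72 that fell at least 2-fold, each of these occurred in 3 (4.17%). The heat shock letters occurred in 6 (5.88%) of the 102 and in 8 (11.1%) of the 72. The ATF4-C/EBP letters occurred in 3 (2.94%) and 4 (5.56%), whereas over all called promoters their share was larger among those that rose (2.44%) than among those that fell (1.33%). The numbers of promoters behind these shares are small. These shares are descriptions and were not tested.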
